A study of Mus musculus with 3 samples.

Results

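Lipid-associated macrophage genes are genes that macrophages in fat tissue, in artery walls and around damaged nerve cells are known to switch on together. The list described here holds 10 of them, Trem2, Gpnmb, Spp1, Lpl, Apoe, Abca1, Cd9, Cd63, Fabp5 and Fabp4. These genes were chosen by symbol, with earlier results of these data known, and all 10 were found among 31053 gene identifiers. They were measured by single-cell RNA sequencing of CD45+ cells, that is leukocytes, sorted from collagenase-digested stomach muscle layers of female C57bl/6 mice. The study concerns how macrophages of this layer change in diabetes, and the 3 libraries used here, replicates 1, 2 and 3, are all labelled NonDiabetic, with no treatment, age or genetic change given in the labels. Samples of diabetic mice were not analysed here, so the comparisons are between cell classes of the same libraries.

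Macrophages take up lipid from dying cells and lipoproteins, store it in droplets or pass it on as cholesterol. TREM2 is a surface receptor that binds lipids and lipoproteins and signals through the adaptor TYROBP. GPNMB is a glycoprotein of lysosomes and the cell surface, and SPP1, or osteopontin, is a secreted adhesion protein. LPL is the lipase that frees fatty acids from circulating triglyceride, APOE is a secreted apolipoprotein that accepts cholesterol, and ABCA1 is the transporter that exports cholesterol to such acceptors. CD9 and CD63 are tetraspanins, membrane proteins of the cell surface and of late endosomes, and FABP5 and FABP4 are small proteins that carry fatty acids in the cytosol. In the gut wall, resident macrophages lie close to muscle cells and nerve fibres, and circulating monocytes can replace part of them.

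In the main tests Trem2, Spp1 and Gpnmb were called lower in Lyve1 than in Ccr2 and Cx3cr1 macrophages, and Abca1 higher in Lyve1 than in Ccr2 macrophages. The Gpnmb calls, and the Spp1 call against Cx3cr1 macrophages, lean on few cells and were lost under some alternatives, as given below. Each Trem2 call was also lost under at least 1 alternative. Gpnmb was not lower in Lyve1 macrophages in every library. Promoters of these members are shown because the results turn on the split between these subsets. Each is the 150 bases before a RefSeq start site in GRCm38.p6, printed 5′ to 3′ on the strand of the gene, from chr17:48346251-48346400 (plus strand) for Trem2, chr5:104434961-104435110 (plus strand) for Spp1, chr6:49036368-49036517 (plus strand) for Gpnmb and chr4:53159896-53160045 (minus strand) for Abca1. Capitals mark GAGGAAG, the core letters of the site of PU.1, the transcription factor of macrophage identity, or CACGTG, the E-box read by TFEB and MITF, both searched on both strands.
Trem2: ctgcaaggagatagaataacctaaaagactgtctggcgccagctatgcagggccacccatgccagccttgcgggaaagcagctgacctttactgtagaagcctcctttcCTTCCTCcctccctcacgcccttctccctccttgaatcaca
Spp1: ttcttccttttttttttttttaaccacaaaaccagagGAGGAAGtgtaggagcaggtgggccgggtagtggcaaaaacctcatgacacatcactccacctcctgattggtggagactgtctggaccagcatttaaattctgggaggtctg
Gpnmb: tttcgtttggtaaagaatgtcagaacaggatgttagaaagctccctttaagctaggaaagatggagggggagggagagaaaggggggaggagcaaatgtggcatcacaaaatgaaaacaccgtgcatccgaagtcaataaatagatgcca
Abca1: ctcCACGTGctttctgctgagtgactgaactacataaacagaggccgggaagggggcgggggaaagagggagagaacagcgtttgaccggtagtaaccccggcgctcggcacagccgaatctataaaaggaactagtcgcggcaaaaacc
GAGGAAG stood in the Spp1 window printed on the strand of the gene, 113 to 107 bases before the start, and in the Trem2 window on the other strand, 41 to 35 bases before it, while the Gpnmb window held neither motif. Another Spp1 start site had neither motif in its window (chr5:104436042-104436191), which is not printed. In counts by gene, a gene held a motif if any of its windows did. The Abca1 window held CACGTG, which reads the same on both strands, 147 to 142 bases before the start. Among the 7 members with an entry (no entry was used for Lpl, Fabp5 and Fabp4), 3 held GAGGAAG, the third being Cd63, and 1 held CACGTG. Counted likewise by gene, 7.85% of 27025 genes held GAGGAAG and 4.92% held CACGTG. Over all 32851 windows the shares were 6.85% and 4.3%. A match of 7 or 6 letters is a description of the sequence, not a binding site.

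The libraries held 881, 2839 and 2015 cell barcodes, of which 522, 1692 and 1216 had at least 1000 UMIs (molecule counts) and at most 15% of them from mitochondrial genes. Their median depth was 9182.5, 5699.5 and 7501.5 UMIs in replicates 1, 2 and 3. Doublets called by scrublet (2, 23 and 12 cells) were removed, and 754 barcodes of 1000 to 2000 UMIs, most of them in replicate 2, were left out of the classes. With those barcodes kept, every comparison called the same number of members. Replicates 2 and 3 shared 33 barcodes, of which 30 had under 1000 UMIs in the poorer copy, replicates 1 and 3 shared 1, and replicates 1 and 2 shared 0. Cells were put in classes from UMIs of marker genes, none of which is a member. Macrophages, called from C1qa, C1qb and C1qc, numbered 190, 605 and 662. They were split into Lyve1 macrophages (any Lyve1 UMI; 79, 354 and 368 cells), Ccr2 macrophages (no Lyve1, any Ccr2; 85, 168 and 182), Cx3cr1 macrophages (neither of these, any Cx3cr1; 16, 41 and 80) and macrophages with none of the 3 genes (10, 42 and 32). Monocytes (Chil3, F10, Plac8 and other markers) numbered 28, 69 and 29, and dendritic cells 69, 103 and 124. Group 2 innate lymphoid cells (ILC2; 106, 143 and 95), which should lack most members, served as the measure of background RNA.

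Markers held out of the gates mostly fitted the class names. The summed level of 8 macrophage markers was 6686, 9036 and 9502 counts-per-million (CPM, over all UMIs of a class in a library) in Lyve1 macrophages, against 645, 470 and 390 CPM in dendritic cells. Ccr2 macrophages stood between the other macrophages and monocytes on the 6 held-out monocyte markers, with 1847, 1687 and 1214 CPM. Cx3cr1 macrophages had 266, 363 and 306 CPM of them and monocytes 3910, 3844 and 3872 CPM. Dendritic cells had 1578, 1539 and 1382 CPM, so this list did not part them from Ccr2 macrophages. Of markers of cells that could carry Lpl or Fabp4 from outside, the adipocyte list reached at most 7.87 CPM and neither it nor the mesothelial list had a gene past the filter on low counts in any comparison. The mesothelial list stood at 131.8 CPM in the monocytes of replicate 1. No label says whether each library is a different mouse, so the p-values cover the variation among these 3 libraries only, which may be technical in origin.

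The members did not move as 1 block between macrophage subsets. Against Ccr2 macrophages, Lyve1 macrophages had more Abca1, Apoe and Cd63 and less Trem2, Gpnmb, Spp1, Lpl, Cd9 and Fabp5, so the cholesterol-export genes and the receptor, lipase and tetraspanin Cd9 went opposite ways. In this comparison 9 of 10 members were called (3 higher, 6 lower), where 26.7% of the 9190 genes tested were called (12.9% higher and 13.8% lower). In the same comparison 4 of 5 tested held-out monocyte markers and 4 of 6 dendritic markers were lower in Lyve1 macrophages and 0 higher, and the median depth was 8241 UMIs in Lyve1 and 10688 UMIs in Ccr2 macrophages; the part of either in the members' differences was not tested. Calls are from edgeR's quasi-likelihood test on UMIs summed per class and library, with library as a blocking term and a Benjamini-Hochberg adjusted p under 0.05 over all genes tested, two-sided, and every adjusted p below is of this kind. Against Cx3cr1 macrophages, Lyve1 macrophages had 0 members higher and 5 lower (8.84% of 9240 genes called, 3.96% higher and 4.88% lower), and Ccr2 macrophages had 1 higher and 5 lower (5.51% of 8054 genes called, 2.52% higher and 2.99% lower). Both of those tests rest on replicates 2 and 3, because replicate 1 had 16 Cx3cr1 macrophages, fewer than the minimum of 20, and with 2 libraries the spread of each gene is borrowed largely from the other genes. The median log2 fold over the members was -1.18 for Lyve1 against Ccr2, -0.55 for Lyve1 against Cx3cr1 and -0.62 for Ccr2 against Cx3cr1, beside medians near 0 over all genes tested (0.0022, 0.030 and 0.0087). The 3 comparisons share samples in pairs, since each subset stands in more than 1 of them.

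Against dendritic cells the members mostly lay on the macrophage side, with Cd9 and Fabp5 on the other and Spp1 not called. Against monocytes Trem2, Apoe, Abca1 and Cd63 were higher in macrophages and Lpl and Fabp5 lower, while Gpnmb, Spp1, Cd9 and Fabp4 were not called. Macrophages had 4 members higher and 2 lower than monocytes (21% of 8357 genes called, 11.4% higher and 9.6% lower) and 7 higher and 2 lower than dendritic cells (40.9% of 8878 genes called, 21.1% higher and 19.8% lower), of which the Fabp5 call was lost without the 19 migratory dendritic cells. Ccr2 macrophages, the subset nearest to monocytes on the held-out markers, had 6 members higher and 1 lower than monocytes (11.1% of 7369 genes called, 6.68% higher and 4.42% lower), with 9 of 10 members past the filter. Held-out dendritic markers moved too: 0 of 7 were higher and 5 lower in macrophages than in monocytes, with summed levels of 468, 353 and 366 CPM against 794, 802 and 688 CPM, and 0 higher and 4 lower in Ccr2 macrophages, at 501, 404 and 424 CPM. Their part in the members' differences was not tested. The median log2 fold over the members tested was 1.31 for macrophages against monocytes, 4.05 for macrophages against dendritic cells and 1.71 for Ccr2 macrophages against monocytes, beside 0.038, 0.021 and 0.013 over all genes tested. The first pair shares its macrophages, and the comparisons with monocytes share those cells.

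**Figure D1:**
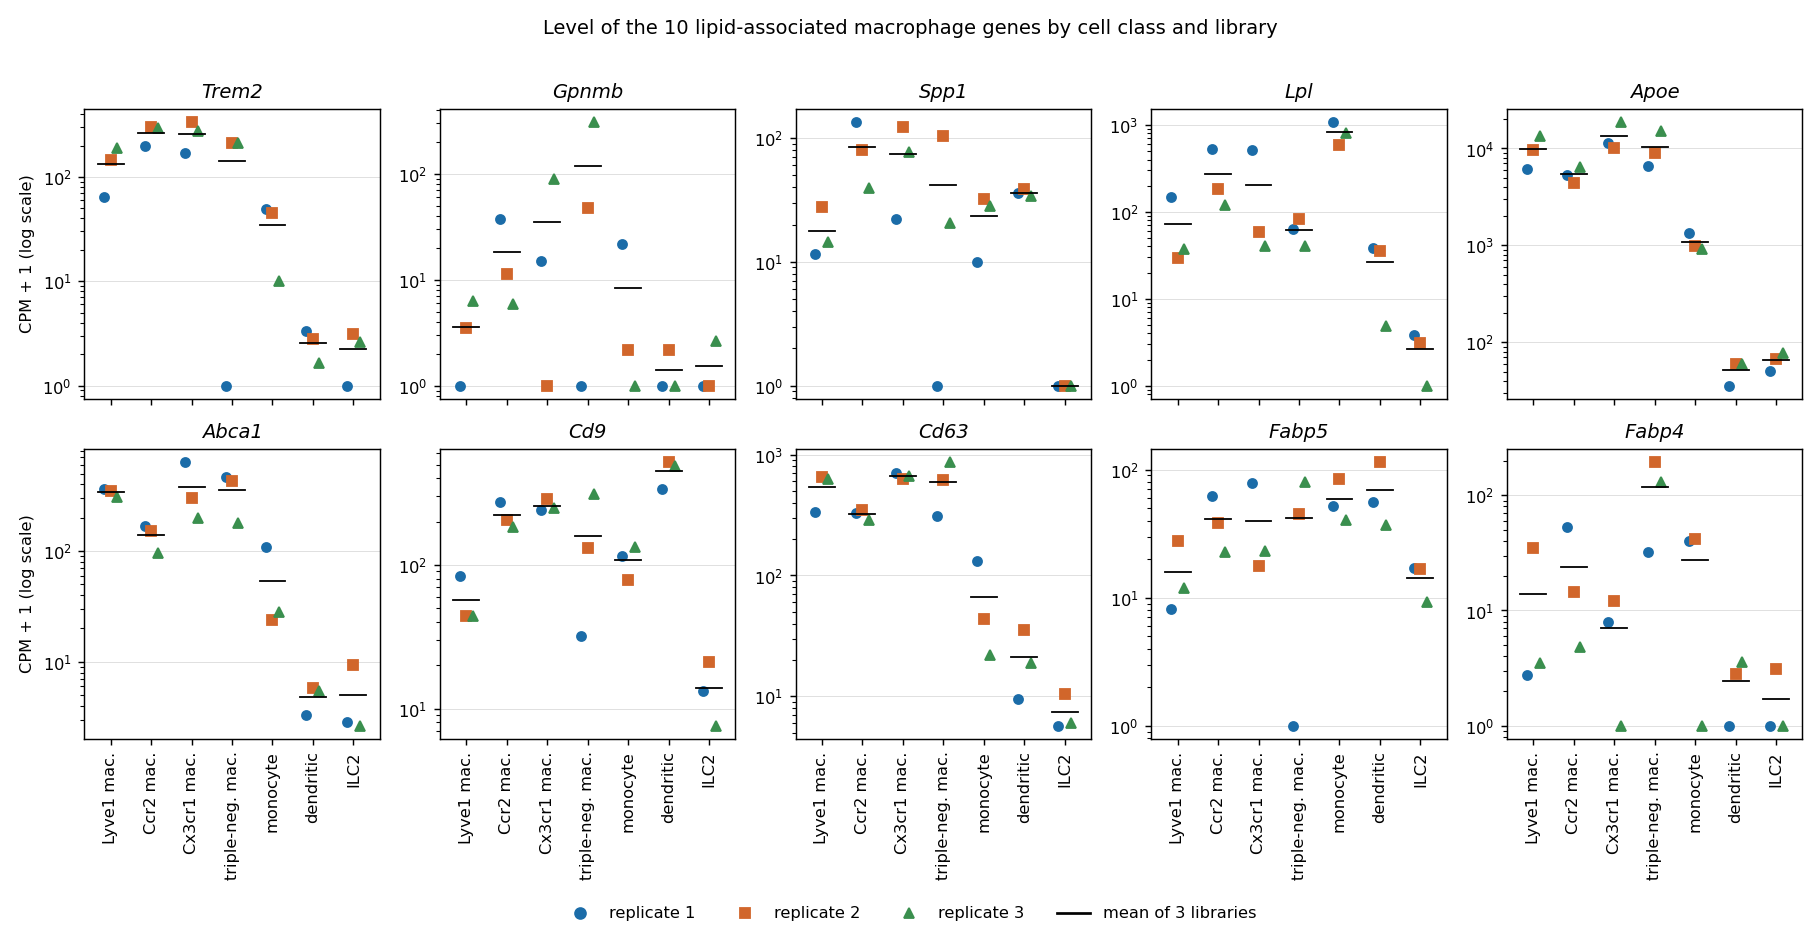
Level of each member in CPM (log axis) by cell class, with 1 point per library. Apoe lay between 4422 and 18620 CPM in the Lyve1, Ccr2 and Cx3cr1 subsets. Of the classes plotted, Lpl was highest in monocytes (583 to 1073 CPM) and Cd9 in dendritic cells (336 to 517 CPM).

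Trem2 (chr17:48346401-48354147, plus strand, GRCm38), the lipid receptor, was at 63.8, 144 and 188 CPM in Lyve1 macrophages, 195, 298 and 293 CPM in Ccr2 macrophages and 168, 333 and 277 CPM in Cx3cr1 macrophages, in replicates 1, 2 and 3. It was at 47.9, 43.8 and 9.05 CPM in monocytes and 2.32, 1.78 and 0.642 CPM in dendritic cells. Within every library the Ccr2 and Cx3cr1 subsets were above the Lyve1 subset and all 3 subsets above monocytes, although across libraries the Lyve1 and Cx3cr1 ranges overlapped. Trem2 was lower in Lyve1 than in Ccr2 macrophages (log2 fold -1.17 ± 0.158 SE, adjusted p = 0.000134) and than in Cx3cr1 macrophages (-1.02 ± 0.171, adjusted p = 0.000421). These calls were kept under 12 of 13 alternatives against Ccr2 (adjusted p up to 0.0988) and 11 of 13 against Cx3cr1 macrophages (up to 0.132). Between Ccr2 and Cx3cr1 macrophages the fold was -0.03, with an adjusted p of 0.969, and its sign changed with the processing. Trem2 was higher in Ccr2 macrophages than in monocytes (2.96 ± 0.316, adjusted p = 0.000119), higher in macrophages than in monocytes (2.46 ± 0.333, adjusted p = 0.000464) and than in dendritic cells (6.78 ± 0.286, adjusted p = 1.52e-07).

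Gpnmb (chr6:49036546-49070929, plus strand), the lysosomal glycoprotein, was rare. It was at 0, 2.52 and 5.32 CPM in Lyve1 macrophages, 36.1, 10.3 and 4.93 CPM in Ccr2 macrophages and 14, 0 and 87.9 CPM in Cx3cr1 macrophages. The subsets overlapped, and single cells carried much of each value: 1 cell held 27 of the 60 Gpnmb UMIs of the Cx3cr1 macrophages of replicate 3, and without it the level there was 49.9 CPM. Macrophages with none of the 3 subset genes had 0, 46.6 and 306 CPM, with 1 cell holding 55 of the 62 UMIs of replicate 3. Gpnmb was called lower in Lyve1 than in Cx3cr1 macrophages (-3.48 ± 0.59, adjusted p = 0.000479), in Ccr2 than in Cx3cr1 macrophages (-2.43 ± 0.407, adjusted p = 3.2e-07) and in Lyve1 than in Ccr2 macrophages (-1.78 ± 0.568, adjusted p = 0.0339). The calls against Cx3cr1 macrophages rest on the cells of replicate 3, since replicate 2 had 0 counts there, and with replicate 1 brought in by a minimum of 10 cells the gene did not pass the filter against Lyve1 macrophages and was not called against Ccr2 macrophages. The call against Ccr2 macrophages was lost without replicate 1 (-1.16, adjusted p = 0.0635) and with DESeq2 (adjusted p = 0.313). Macrophages had 22.1, 7.64 and 25.1 CPM and dendritic cells 0, 1.19 and 0 CPM, a total of 2 counts (5.00 ± 0.713, adjusted p = 0.00036), and the test against monocytes gave 1.52 with an adjusted p of 0.149.

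Spp1 (chr5:104435118-104441050, plus strand), osteopontin, was at 10.6, 26.5 and 13.5 CPM in Lyve1 macrophages, 133, 79.5 and 38.3 CPM in Ccr2 macrophages and 21, 122 and 76.2 CPM in Cx3cr1 macrophages. It was at 8.99, 31.1 and 27.2 CPM in monocytes and 34.7, 37.5 and 32.7 CPM in dendritic cells, where the cDC1 subset, the dendritic cells that present antigen to cytotoxic T cells, had 63.4 ± 4.68 CPM in replicates 2 and 3 (SD, n = 2); the 9 cDC1 cells of replicate 1 were left out of that mean. Every Ccr2 value lay above every Lyve1 value. Spp1 was lower in Lyve1 than in Ccr2 macrophages (-2.03 ± 0.239, adjusted p = 4.08e-05), lower in Lyve1 than in Cx3cr1 macrophages (-2.50 ± 0.253, adjusted p = 1.23e-06) and higher in Ccr2 macrophages than in monocytes (1.73 ± 0.375, adjusted p = 0.0108; 0.075 without replicate 2). It was also called lower in Ccr2 than in Cx3cr1 macrophages (-0.79 ± 0.233, adjusted p = 0.0173), a call lost with a minimum of 10 cells. Both calls against Cx3cr1 macrophages lean on single cells, since 1 cell held 31 of the 44 Spp1 UMIs of Cx3cr1 macrophages in replicate 2 and 1 cell 42 of 52 in replicate 3. Without those cells the Cx3cr1 levels were 37.1 and 15.2 CPM, beside the Lyve1 levels of 26.5 and 13.5 CPM, or 14.3 and 5.03 CPM with the Lyve1 cell of most Spp1 UMIs also left out of each library. Thinned to 1000 UMIs per cell, the fold of Lyve1 over Cx3cr1 macrophages was -1.75 with an adjusted p of 0.111. All macrophages had 82.2, 55.3 and 28.6 CPM, a range that held the dendritic cells, and neither the test against dendritic cells (0.36, adjusted p = 0.306) nor that against monocytes (1.09, adjusted p = 0.0721) passed. ILC2 had 0 Spp1 UMIs in every library, which allows up to 2.82, 3.16 and 4.95 CPM.

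Lpl (chr8:68880491-68907448, plus strand), the triglyceride lipase, was higher in monocytes than in macrophages. It was at 522, 183 and 119 CPM in Ccr2 macrophages and 393, 88.2 and 62.5 CPM in macrophages as a whole, against 1073, 583 and 809 CPM in monocytes, with no overlap. Lpl was lower in Ccr2 macrophages than in monocytes (-1.75 ± 0.239, adjusted p = 0.000527) and lower in macrophages than in monocytes (-2.64 ± 0.327, adjusted p = 0.000269). Among macrophages it was at 149, 28.7 and 36.6 CPM in Lyve1 cells and at 512, 58.2 and 39.6 CPM in Cx3cr1 cells, and replicate 1 was the highest in each of these 3 subsets. Lpl was lower in Lyve1 than in Ccr2 macrophages (-2.21 ± 0.188, adjusted p = 3.34e-06) and higher in Ccr2 than in Cx3cr1 macrophages in replicates 2 and 3 (1.62 ± 0.24, adjusted p = 3.44e-09). It was not called between Lyve1 and Cx3cr1 macrophages in replicates 2 and 3 (-0.66 ± 0.3, adjusted p = 0.215). With replicate 1 included, the log2 fold of Ccr2 over Cx3cr1 macrophages was 0.95 with an adjusted p of 0.0657. In that library 1 of the 16 Cx3cr1 macrophages held 62 of their 73 Lpl UMIs, and without it their level was 82.5 CPM. Within the Ccr2 subset, cells without Cx3cr1 had 1201, 288 and 231 CPM and cells with Cx3cr1 301, 114 and 81 CPM, the first above the second in every library, with no test. The held-out monocyte markers ran the same way as Lpl across Lyve1, Ccr2 and monocyte classes, and their part in it was not tested. Lpl was higher in macrophages than in dendritic cells, at 37.8, 34.5 and 3.85 CPM (2.48 ± 0.384, adjusted p = 0.000602).

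Apoe (chr7:19696109-19699188, minus strand), the apolipoprotein, had no overlap between macrophage subsets and monocytes in any library. It was at 6085, 9654 and 13550 CPM in Lyve1 macrophages, 5319, 4422 and 6465 CPM in Ccr2 macrophages and 11320, 10180 and 18620 CPM in Cx3cr1 macrophages, against 1348, 980 and 908 CPM in monocytes. The Ccr2 subset was the lowest and the Cx3cr1 subset the highest of the 3 in every library. Apoe was higher in Lyve1 than in Ccr2 macrophages (0.65 ± 0.145, adjusted p = 0.00492), a call lost without replicate 2 (0.50, adjusted p = 0.186). It was lower in Lyve1 than in Cx3cr1 macrophages (-0.43 ± 0.109, adjusted p = 0.0154) and lower in Ccr2 than in Cx3cr1 macrophages (-1.36 ± 0.0737, adjusted p = 1.82e-71), of which only the second held with DESeq2. That second test rests on 2 libraries, with 14400 ± 5970 CPM in Cx3cr1 macrophages (SD), so its p-value is no measure of the spread between libraries. It was called under 11 of 13 alternatives, with an adjusted p of up to 0.25. Apoe was higher in Ccr2 macrophages than in monocytes (2.38 ± 0.165, adjusted p = 5.24e-06), and higher in macrophages than in monocytes (2.93 ± 0.252, adjusted p = 2.32e-05) and than in dendritic cells (7.19 ± 0.199, adjusted p = 2.92e-08). ILC2 had 49.8, 66.3 and 75.8 CPM, or 0.82%, 0.851% and 0.632% of the macrophage level, and dendritic cells, at 34.7, 59.4 and 59 CPM, were at or below that background.

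Abca1 (chr4:53030787-53159895, minus strand), the cholesterol exporter, was at 365, 348 and 307 CPM in Lyve1 macrophages, 167, 151 and 95.8 CPM in Ccr2 macrophages and 631, 300 and 196 CPM in Cx3cr1 macrophages. It was at 108, 23.1 and 27.2 CPM in monocytes and at 2.32, 4.76 and 4.49 CPM in dendritic cells. Lyve1 and Ccr2 macrophages did not overlap, and the Cx3cr1 values spread over the Lyve1 range. Abca1 was higher in Lyve1 than in Ccr2 macrophages (1.19 ± 0.141, adjusted p = 4.36e-05), lower in Ccr2 than in Cx3cr1 macrophages (-1.01 ± 0.185, adjusted p = 5.57e-06) and higher in Ccr2 macrophages than in monocytes (1.71 ± 0.325, adjusted p = 0.00514; 0.0919 without replicate 2). The call between Ccr2 and Cx3cr1 macrophages, on 2 libraries, was kept under 9 of 13 alternatives, with an adjusted p of up to 0.518. Abca1 was higher in macrophages than in monocytes (2.53 ± 0.348, adjusted p = 0.000523) and than in dendritic cells (5.83 ± 0.241, adjusted p = 1.42e-07). Thus Abca1 and Apoe, exporter and acceptor, were both lowest in the Ccr2 subset among the 3 named subsets in every library, while Lpl was lowest in the Lyve1 subset in every library. For Lpl in replicate 1 that order hung on 1 Cx3cr1 cell. Without it the Cx3cr1 level was 82.5 CPM, beside 149 CPM in Lyve1 macrophages, or 95.2 CPM without their own top cell.

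Cd9 (chr6:125460266-125494791, minus strand), a surface tetraspanin, was at 83.2, 43.1 and 42.9 CPM in Lyve1 macrophages, 275, 204 and 184 CPM in Ccr2 macrophages and 238, 286 and 246 CPM in Cx3cr1 macrophages. Lyve1 macrophages lay below every value of the Ccr2 and Cx3cr1 subsets. Cd9 was lower in Lyve1 than in Ccr2 macrophages (-2.21 ± 0.153, adjusted p = 6.48e-07) and than in Cx3cr1 macrophages (-2.78 ± 0.175, adjusted p = 3.53e-09), called under every alternative tried for these 2 comparisons. Macrophages as a whole had 206, 120 and 119 CPM, below the 336, 517 and 486 CPM of dendritic cells in every library (-1.82 ± 0.277, adjusted p = 0.000535). Cd9 was higher in Ccr2 macrophages than in monocytes, at 114, 77.2 and 133 CPM (1.12 ± 0.188, adjusted p = 0.00222; 0.0668 without replicate 2). ILC2 held 5.92%, 16.7% and 5.54% of the macrophage level.

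Cd63 (chr10:128900989-128912822, plus strand), the tetraspanin of late endosomes, did not follow Cd9. It was at 335, 659 and 623 CPM in Lyve1 macrophages, 326, 350 and 288 CPM in Ccr2 macrophages and 708, 630 and 662 CPM in Cx3cr1 macrophages. The Lyve1 and Ccr2 values met in replicate 1 and were apart in replicates 2 and 3. Cd63 was higher in Lyve1 than in Ccr2 macrophages (0.57 ± 0.168, adjusted p = 0.0233), a call lost without replicate 2 (adjusted p = 0.257), without replicate 3 (0.211) and with DESeq2 (0.0611). It was lower in Ccr2 than in Cx3cr1 macrophages (-1.03 ± 0.158, adjusted p = 1.75e-08) and higher in Ccr2 macrophages than in monocytes, at 132, 42.6 and 21.1 CPM (2.54 ± 0.331, adjusted p = 0.000411). The call between Ccr2 and Cx3cr1 macrophages, on 2 libraries, was kept under 11 of 13 alternatives, with an adjusted p of up to 0.488. Cd63 was higher in macrophages than in monocytes (2.99 ± 0.419, adjusted p = 0.000578) and than in dendritic cells, at 8.49, 34.5 and 18 CPM (4.41 ± 0.252, adjusted p = 8.77e-07; 5.56 without migratory dendritic cells). Outside the classes compared, mast cells or basophils had 1111, 2518 and 2742 CPM over 26 cells.

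Fabp5 (chr3:10012548-10016607, plus strand) and Fabp4 (chr3:10204088-10208576, minus strand), neighbouring fatty-acid carriers, were low. Fabp5 was at 7.08, 26.8 and 11 CPM in Lyve1 macrophages, 61.5, 37 and 21.9 CPM in Ccr2 macrophages and 77.1, 16.6 and 22 CPM in Cx3cr1 macrophages. It was at 50.9, 83 and 39.2 CPM in monocytes and 54.8, 113 and 35.9 CPM in dendritic cells, so that monocytes and dendritic cells overlapped with Ccr2 macrophages. ILC2 reached 36.1%, 51.4% and 45.9% of the macrophage level of 44.2, 30.7 and 18 CPM, beside the under 1% at which ILC2 held Apoe. Whether Fabp5 in ILC2 was background RNA was not tested. Fabp5 was lower in Lyve1 than in Ccr2 macrophages (-1.19 ± 0.293, adjusted p = 0.00902), lower in macrophages than in monocytes (-1.04 ± 0.273, adjusted p = 0.0202; 0.353 without replicate 2) and than in dendritic cells (-1.34 ± 0.28, adjusted p = 0.00367). Migratory dendritic cells, those that express Ccr7 on their way to lymph nodes, had 118, 1223 and 427 CPM over 19 cells in all, and held 3 of 71, 129 of 190 and 44 of 56 dendritic Fabp5 UMIs. With them left out, an alternative chosen after seeing the data, the other dendritic cells had 53.5, 38.7 and 8.25 CPM and the call was lost (-0.17, adjusted p = 0.616). Fabp4 was at 1.77, 34 and 2.5 CPM in Lyve1 macrophages, 51.8, 13.6 and 3.83 CPM in Ccr2 macrophages, 7.01, 11.1 and 0 CPM in Cx3cr1 macrophages and 38.9, 40.4 and 0 CPM in monocytes. Single cells set these Fabp4 levels, with 1 cell holding 70 of the 108 UMIs of the Lyve1 macrophages of replicate 2, and the gene was called in no comparison between subsets or with monocytes. It was higher in macrophages, at 31.8, 34.4 and 6.94 CPM, than in dendritic cells, at 0, 1.78 and 2.57 CPM (3.70 ± 0.599, adjusted p = 0.000788; 4.90 without migratory dendritic cells).

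**Figure D2:**
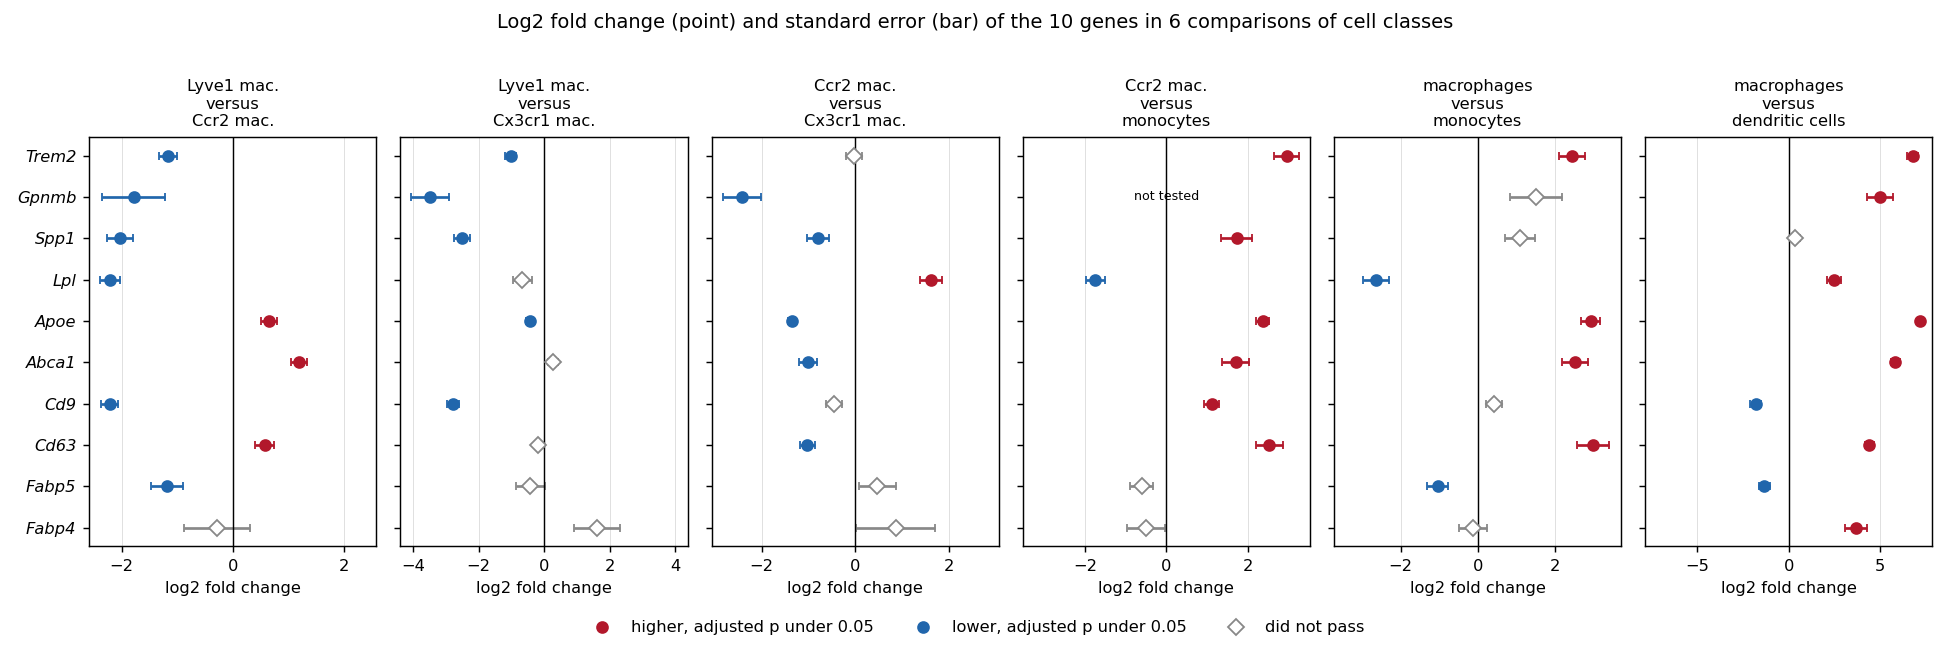
Log2 fold of each member in the 6 comparisons, as a point with its standard error from edgeR, first-named class over second, filled where the adjusted p is under 0.05. Lyve1 over Ccr2 macrophages runs from -2.21 for Lpl and Cd9 to 1.19 for Abca1, and macrophages over dendritic cells from -1.82 for Cd9 to 7.19 for Apoe.

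Lists of related genes had calls in both directions between Lyve1 and Ccr2 macrophages, to be read beside the 26.7% of all genes called there (12.9% higher and 13.8% lower). Of 14 tested genes of cholesterol transport and LXR, the sterol-sensing receptor, 2 were higher and 1 lower in Lyve1 than in Ccr2 macrophages, a share no larger than that over all genes: Rxra, a partner of LXR (1.44 ± 0.22, adjusted p = 0.000339), and Mylip, which degrades the LDL receptor (1.18 ± 0.148, adjusted p = 6.65e-05), were higher, and Abcg1, the second cholesterol exporter, was lower (-1.98 ± 0.212, adjusted p = 1.92e-05). Abcg1 therefore ran opposite to Abca1, at 14.1 ± 6.35 CPM in Lyve1 and 46.4 CPM in Ccr2 macrophages (mean, n = 3). Of 11 tested genes of fatty acid uptake and lipid droplets, 2 were higher, Cd36, a fatty acid transporter (1.19 ± 0.125), and Msr1, a scavenger receptor (0.70 ± 0.131), and 3 were lower, among them Pparg, the nuclear receptor of fat storage (-2.63 ± 0.356, adjusted p = 0.00013), and Hilpda, a lipase inhibitor of lipid droplets (-1.36 ± 0.207). Of 7 tested genes of TREM2 signalling, 1 was higher, Cd33, an inhibitory receptor (0.81 ± 0.161), and 4 were lower, including the adaptor Tyrobp (-0.72 ± 0.133, adjusted p = 0.00147) and the phospholipases Plcg2 (-0.75 ± 0.17) and Plcb2 (-1.88 ± 0.33). Of 17 tested further genes of lipid-associated or disease-associated macrophages, 6 were higher, among them the growth factor Igf1 (1.60 ± 0.295) and the metalloprotease inhibitor Timp2 (1.47 ± 0.131), and 6 lower, among them the integrin Itgax (-3.06 ± 0.295) and the lectin Lgals3 (-1.71 ± 0.128). Of 11 other tetraspanins, 4 were higher and 1 lower, with Tspan4 at 1.89 ± 0.171 and Tspan13 at -1.5 ± 0.222. The medians of the cholesterol, fatty acid, TREM2 signalling, further lipid-associated and tetraspanin lists were 0.10, 0.073, -0.41, 0.12 and 0.26. None of 9 other fatty-acid-binding and retinoid-binding proteins passed the filter on low counts.

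Against monocytes, where 21% of all genes were called (11.4% higher and 9.6% lower), 6 of 13 tested cholesterol genes were higher in macrophages and 0 lower, including Mylip (2.64 ± 0.234, adjusted p = 2.89e-05), the lysosomal acid lipase Lipa (1.02 ± 0.195) and the cholesterol ester hydrolase Nceh1 (1.00 ± 0.236). Ch25h, which makes 25-hydroxycholesterol, had 27.7 ± 10 CPM in macrophages (SD, n = 3) and 0 counts in monocytes. The fatty acid list had 4 of 11 higher and 0 lower, namely Cd36 (2.26 ± 0.186), Acsl1, which activates fatty acids (1.5 ± 0.36), Msr1 (1.42 ± 0.196) and the droplet coat protein Plin2 (0.60 ± 0.175). The TREM2 signalling list had 2 higher and 2 lower of 7, with Tyrobp lower (-0.49 ± 0.13, adjusted p = 0.0216) although Trem2 was higher. The medians of the cholesterol, fatty acid and TREM2 signalling lists were 0.58, 0.058 and -0.37, beside 0.038 over all genes tested. In Ccr2 macrophages against monocytes the counts were 3 of 12 higher and 0 lower for cholesterol genes, 4 of 11 and 0 for fatty acid genes and 2 of 7 and 0 for TREM2 signalling, beside 6.68% of all genes higher and 4.42% lower.

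To compare shares of cells across depths, each cell was thinned to 1000 UMIs, which left out no cell of these classes, since each had at least 2000 UMIs; median depths were 8847 UMIs in macrophages, 7140.5 UMIs in ILC2 and 15456.5 UMIs in dendritic cells. After thinning, Trem2 was found in 10.5%, 15.4% and 15.4% of macrophages (exact 95% Clopper-Pearson intervals, which cover counting error only, 6.55 to 15.8, 12.6 to 18.5 and 12.7 to 18.4), against 0 of 296 dendritic cells and 0 of 344 ILC2, which allow up to 1.01% and 0.872% of cells with a Trem2 UMI at that depth and set no limit on cells that express it. Without thinning Trem2 was found in 52.7% ± 10.2 of macrophages, 19.3% ± 9.12 of monocytes, 2.69% ± 1.78 of dendritic cells and 0.817% ± 0.728 of ILC2 (SD, n = 3 libraries). Apoe was found in 94.6% ± 3.05 of Lyve1, 72.1% ± 2.32 of Ccr2 and 94.2% ± 0.792 of Cx3cr1 macrophages after thinning, against 28.2% ± 6.54 of monocytes, 7.42% ± 2.01 of dendritic cells and 7.88% ± 1.76 of ILC2. The Apoe share of dendritic cells was thus that of ILC2 and is read as background, whereas the share in monocytes was above that of ILC2 in every library. Without thinning the Apoe shares were 99%, 89.3% and 98.8% in Lyve1, Ccr2 and Cx3cr1 macrophages, 60.5% in monocytes and 35.5% in ILC2.

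Lpl was found after thinning in 2.71% ± 2.16 of Lyve1, 11.5% ± 5.65 of Ccr2 and 7.46% ± 4.37 of Cx3cr1 macrophages, against 29.5% ± 7.11 of monocytes and 0.233% ± 0.404 of ILC2, and without thinning in 11.1%, 31.9%, 20.3%, 44% and 1.18%. Cd9 was found in 3.32% ± 2.65 of Lyve1, 13.3% ± 2.56 of Ccr2 and 18.6% ± 5.78 of Cx3cr1 macrophages, 30.3% ± 14.9 of dendritic cells and 0.466% of ILC2, and without thinning in 13.5%, 57.3%, 47.1%, 87.5% and 5.32%. Abca1 was found in 29.8% ± 1.11 of Lyve1, 14.9% ± 2.61 of Ccr2 and 28.9% ± 13.9 of Cx3cr1 macrophages and Cd63 in 36.7% ± 13.3, 22% ± 3.14 and 36.8% ± 8.36, with 0.314% and 0.548% in ILC2, and without thinning in 80.6%, 58.5% and 74% for Abca1 and 86.2%, 72.7% and 88.8% for Cd63, with 2.38% and 4.18% in ILC2. The Ccr2 subset had the lowest mean share of the 3 for Abca1 and Cd63 and the Lyve1 subset for Lpl and Cd9, as for the CPM levels. Spp1 was found in 2.17% ± 0.617 of macrophages and 0 of 344 ILC2, Gpnmb in 0.658% ± 0.452 of macrophages and Fabp4 in 0.847% ± 0.658, and without thinning in 11%, 1.95% and 4.12% of macrophages. Fabp5 was found in 1.56% ± 0.928 of macrophages and 1.25% ± 1.42 of ILC2 (10.8% and 7.03% without thinning), a difference within the spread between libraries. All members but Fabp5 and Fabp4, that is 8 of 10, had a higher share in macrophages than in ILC2 in all 3 libraries after thinning.

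**Figure D3:**
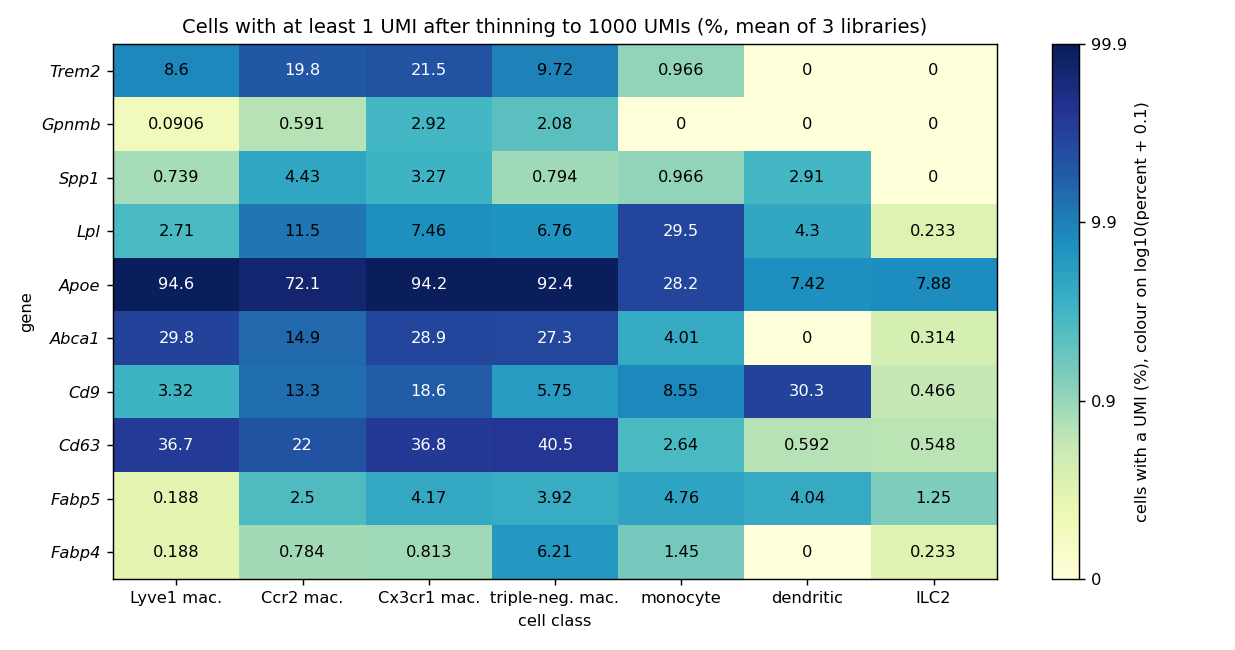
Percent of cells with at least 1 UMI of each member after thinning to 1000 UMIs, as the mean over 3 libraries, by class. Apoe reaches 94.6% in Lyve1 macrophages, Lpl 29.5% in monocytes and Cd9 30.3% in dendritic cells, and ILC2 are shown for comparison.

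At the thinned depth few macrophages held many of the members at once, but thinning itself lowers the number of members found in a cell. Without thinning, Apoe was found in 95.8% of the 1441 macrophages with under 3 Gpnmb UMIs. Cd63 was found in 84.8% of them, Abca1 in 71.8%, Trem2 in 55.9%, Cd9 in 30% and Lpl in 15.5%, and the other members in fewer. Members per cell were not counted without thinning. After thinning, a macrophage held 1.79 of the 10 members on average (median 2), 486 of 1457 macrophages held both Apoe and Cd63, and 10 of 1457 macrophages held 5 or more, against means of 0.81 in monocytes, 0.52 in dendritic cells and 0.116 in ILC2. At that depth Trem2, Gpnmb or Spp1 was found in 245 macrophages (16.8%), 2 of these genes together in 12, and all 3 in 0 of 1457. Without thinning, of the 16 macrophages with 3 or more Gpnmb UMIs, 15 had Trem2 and 4 had Spp1, so some held all 3. Of the 45 pairs of members, 21 could be read, both members being found in at least 5 thinned macrophages of every library, a limit chosen after seeing the data. A log2 odds ratio above 0 stands for genes found together more often than their separate shares would give. With 0.5 added to each count, 8 of these 21 pairs were above 0 in all 3 libraries, 4 below 0 in all 3, and 9 had mixed signs. For Cd9 with Cd63 in replicate 1 and Trem2 with Fabp5 in replicate 3, the added 0.5 alone put the ratio above 0. With 3 libraries no exact test of a sign can pass 0.05, so these are descriptions.

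Apoe and Abca1 went together: 25.8% of macrophages with Apoe had Abca1, against 11.3% of those without Apoe (log2 odds ratio 1.46 ± 0.373, SD, n = 3). Apoe and Cd63 did likewise, with Cd63 in 37.7% of macrophages with Apoe and 17.9% of those without (1.20 ± 0.675). Trem2 and Cd9 also went together, Cd9 being found in 11.6% of macrophages with Trem2 and 6.2% of those without (1.09 ± 0.462). In contrast, Cd9 was found in 5.59% of macrophages with Apoe and 17.9% of those without (-1.81 ± 0.209), and Apoe in 59.7% of macrophages with Lpl and 90% of those without (-2.45 ± 1.01). Lpl and Fabp5 had the highest ratio (2.61 ± 0.268), on 4 cells with both, and at a depth of 2000 UMIs it was 0.29.

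The same pairs were looked at on either side of the Lyve1 gate. Within Lyve1-negative macrophages Apoe and Abca1 still went together in every library (log2 odds ratios 1.88, 2.65 and 1.14), as did Trem2 and Cd9 (0.89, 1.54 and 0.42) and Apoe and Cd63 (0.16, 1.14 and 0.66). Apoe and Cd9 were below 0 in every library there (-0.50, -1.22 and -0.91), and Lpl and Apoe in replicates 2 and 3 (-2.27 and -2.37) but not in replicate 1 (0.10). Ratios within Lyve1-positive macrophages are given without a reading, because the counts behind them were too small. Apoe and Abca1 had 1.04, -0.83 and -0.41 there, with Abca1 in 29.4% of cells with Apoe and 33.3% of those without. Apoe and Cd63 had 2.24, 3.07 and 1 there. The Lyve1-negative counts for Apoe and Abca1 were small too, with 2, 2 and 4 macrophages that had Abca1 without Apoe. In Lyve1-positive macrophages 0 cells held both Trem2 and Cd9 in any library. Lyve1-positive macrophages without Apoe numbered 1 with and 6 without Abca1 in replicate 1, 6 and 8 in replicate 2, and 4 and 8 in replicate 3.

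**Figure D4:**
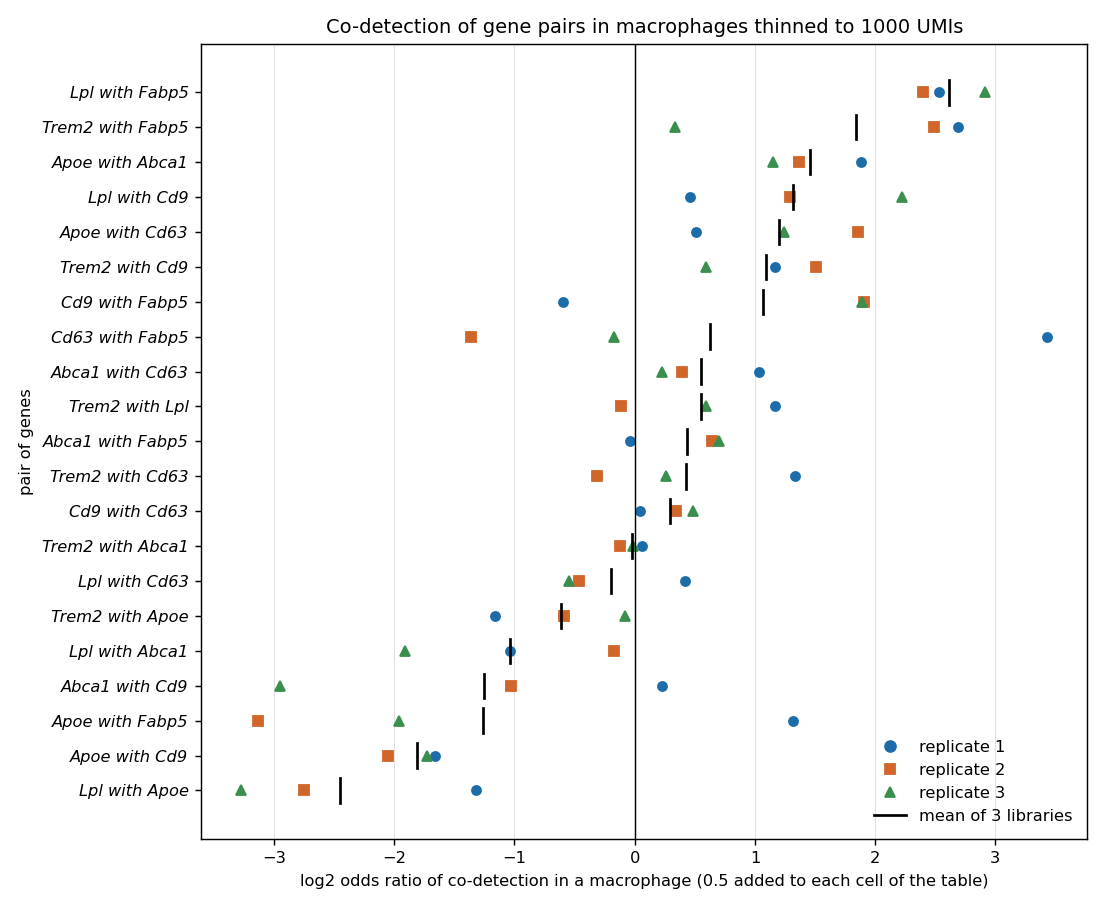
Log2 odds ratio of finding 2 members in the same macrophage after thinning to 1000 UMIs, for the readable pairs, with 1 point per library and the mean. Apoe with Abca1 (mean 1.46) lies above 0 in all 3 libraries, and Apoe with Cd9 (-1.81) and Lpl with Apoe (-2.45) lie below 0 in all 3.

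The rare cells rich in Gpnmb carried several members at once, but Abca1, Lpl, Spp1 and Fabp4 were not higher in them in every library. Macrophages with 3 or more Gpnmb UMIs, a limit chosen after seeing the data and given as a description, numbered 2, 4 and 10, and these 16 of 1457 macrophages held 219 of 233 Gpnmb UMIs. They came from the Ccr2 (5 cells), Cx3cr1 (5), Lyve1 (3) and triple-negative (3) subsets. Cd9, Cd63, Trem2, Apoe and Fabp5 stood above the level of the other 1441 macrophages in each library. Cd9 was at 735.6, 373.9 and 1054 CPM in them and 196.8, 116.6 and 94.54 CPM in the other macrophages, and Cd63 at 511.7, 1426 and 1452 CPM, against 356.7, 534.2 and 508 CPM. Trem2 was at 287.8, 927.7 and 338.2 CPM in them, against 144.9, 205 and 229.1 CPM. Apoe was at 38980 CPM against 11300 CPM in replicate 3, with a smaller gap in replicates 1 and 2 (7068 and 9762 CPM, against 6056 and 7765 CPM). Abca1 was higher in replicates 1 and 2 (319.8 and 470.8 CPM, against 272.5 and 277.2 CPM) and lower in replicate 3 (79.58 CPM, against 228.4 CPM), and Lpl was higher in replicates 1 and 2 (3774 and 401.6 CPM, against 331.9 and 84.44 CPM) and not in replicate 3 (46.42 CPM, against 62.91 CPM). Spp1 was lower in replicates 1 and 3 (63.96 and 6.632 CPM, against 82.55 and 29.2 CPM) and higher in replicate 2 (498.5 CPM, against 49.96 CPM). Fabp4 was higher in replicates 1 and 2 (1119 and 1108 CPM, against 12.12 and 21.36 CPM) and not in replicate 3 (6.632 CPM, against 6.952 CPM). The median depth of these 16 cells was 17760 UMIs, against 8803 UMIs in the other macrophages. The part of depth in these differences was not tested.

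The genes whose levels most resembled each member were found by Pearson's r of log2(CPM + 1) over 27 profiles of class by library, each centred on the mean of its library, among 10045 genes. The profiles share libraries and ambient RNA, so r is a description. Apoe was most like Fblim1 (0.983), Ms4a7 (0.98) and C5ar1 (0.979), and Abca1 like Pf4 (0.967), C5ar1 (0.965) and Apoe itself (0.962). Trem2 was most like Tlr7 (0.947), Snx24 and Itgb5, Cd63 like Ms4a7 (0.949), Nuak1 and Lamp1, and Gpnmb like Atp6v0d2 (0.846), a subunit of the vacuolar proton pump, Slc6a8 and A530013C23Rik. Lpl was most like Fn1 (0.922), Klra2 and Gm21188, and Fn1 is one of the held-out monocyte markers. Spp1 (Brk1, 0.917), Cd9 (Ptms, 0.902), Fabp5 (Nfkb2, 0.815) and Fabp4 (Cstb, 0.765) had other nearest genes, so no member other than Abca1 had a member among its 3 nearest.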

How the data were processed

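Gel-bead droplet libraries (10x Genomics 3′, version 3 chemistry) were deposited as UMI counts per gene and cell barcode, which the authors made with Cell Ranger 3.1 on mm10 per the submitters' processing notes; software 3.0.0 stands in the header of replicate 1 and 3.1.0 in the other headers. Intron counting is not given in the sources used here. These deposited counts were used as they are.

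Members, related gene lists and markers were chosen with earlier results of these data known. Cells with at least 1000 UMIs and at most 15% mitochondrial UMIs were kept, doublets were removed with scrublet (scanpy 1.11.5, expected rate 0.8% per 1000 cells), and cells of at least 2000 UMIs were put in classes by CPM of gate markers (macrophages from 2000 CPM of C1q genes, others at most 1000). There were 127 cells between 500 and 3000 CPM of C1q genes, and 82 macrophages passed the Lyve1 gate on 1 UMI. Of the 126 monocytes, 25 were classed on 1 UMI of the gate markers. Counts were summed per class and library where a class had at least 20 cells, filtered with filterByExpr, scaled by TMM and tested in edgeR 4.0.16 (R 4.3.3) with the library as a block, since both classes of a comparison come from the same libraries; DESeq2 1.42.0 was an alternative. The test was run on simulated data first. The comparison of Lyve1 with Ccr2 macrophages was added after the cells per subset were counted. All 10 members are reported; from each related list up to 4 called genes with the largest absolute log2 fold are named, and for each member the 3 genes with the highest r.

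Library totals were 6777422, 13336484 and 11017170 UMIs. Co-detection used 0.5 added to each cell of the table of counts. Promoter sequences are from RefSeq (GRCm38.p6) and gene coordinates from the GENCODE annotation of the same genome.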

Additional observations from a re-analysis of the deposited data

How the results depend on the processing

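Over 716 tests of a member under an alternative, 621 kept their direction and side of the threshold, 55 lost the call, 18 gained one and 22 changed sign, 0 of these with both values called. Members called numbered 3 with DESeq2, 1 with no replicate block and 1 with cells thinned to 1000 UMIs for Lyve1 against Cx3cr1 macrophages (5 as reported), and 3, 0 and 0 for Ccr2 against Cx3cr1 (6 as reported), where a minimum of 10 cells gave 3 and 3 to 4 without replicate 2 or 3. They numbered 4 with no replicate block and 3 thinned for Ccr2 macrophages against monocytes (7 as reported; 4 to 8 leaving out a library), 5 to 8 leaving out a library for macrophages against monocytes (6) and 4 with no replicate block for Lyve1 against Ccr2 (9; 6 to 8 leaving out a library). Over all genes, DESeq2 called 295 for Lyve1 against Cx3cr1, 30 for Ccr2 against Cx3cr1, 420 for Ccr2 against monocytes and 1248 for Lyve1 against Ccr2. With no replicate block the counts were 96, 1, 339, 1092 (macrophages against monocytes), 2357 (macrophages against dendritic cells) and 766 (Lyve1 against Ccr2), and with thinned cells 261, 1, 142, 414, 933 and 750, where fewer UMIs were tested. The main counts were 817, 444, 818, 1757, 3628 and 2457. A subset gate read on thinned cells gave 1227 and 202 for the comparisons with Cx3cr1 macrophages, and a minimum of 10 cells 227 for Ccr2. Leaving out a library gave 292 to 481 (Lyve1 against Cx3cr1, minimum of 10 cells), 150 to 152 (Ccr2 against Cx3cr1, likewise), 346 to 880, 765 to 2278, 2256 to 4439 and 1110 to 3232. With 2 libraries the planned leaving out of a library could not be fitted for the Cx3cr1 comparisons. The cause of these moves was not tested.

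Signs changed for Abca1 (-0.102 with a minimum of 10 cells, -0.15 and -0.43 also without replicate 2 or 3) and Cd63 (0.37 thinned) in Lyve1 against Cx3cr1. In Ccr2 against Cx3cr1 they changed for Trem2 (0.036 with no filter, 0.13 thinned, 0.17 with the thinned gate, 0.015 and 0.18 with a minimum of 10 cells), Gpnmb (0.044 with DESeq2), Spp1 (0.071 and 0.18 with a minimum of 10 cells) and Fabp5 (-1.34 with the thinned gate, -0.11 with a minimum of 10 cells). Elsewhere they changed for Fabp4, at -1.18 to 0.60 leaving out a library in Ccr2 macrophages against monocytes, at 0.026 with DESeq2, 0.062 with doublets kept, 0.12 with monocytes from 200 CPM and -0.32 to 0.16 leaving out a library in macrophages against monocytes, and at 0.11 with doublets kept and -0.26 to 0.80 leaving out a library in Lyve1 against Ccr2. Spp1 in macrophages against dendritic cells ran from -0.029 to 0.74 leaving out a library.

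Of 70 shares of macrophages under an alternative 7 moved by more than the spread between libraries, each with a depth of 2000 UMIs, and of 147 log2 odds ratios 4 moved. Gpnmb, Spp1 and Fabp4 are limited by the number of cells, since 1 cell can hold most of their UMIs in a subset and library. Single cells also weighed on other members. In Lyve1 macrophages 1 cell held 72 of 117 Lpl UMIs in replicate 3 and 1 cell 51 of 85 Fabp5 UMIs in replicate 2. Of the 44 Cd63 UMIs in monocytes of replicate 1, 1 cell held 34, and without it their level was 30.9 CPM.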
